A study of Homo sapiens with 4 samples.

Results

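The heparan sulfate synthesis and sulfation enzymes described here were the 10 genes of the count table with the symbols EXT1, EXT2, NDST1, NDST2, HS2ST1, HS6ST1, HS6ST2, HS6ST3, HS3ST1 and SULF1, out of 58051 genes in the table. All 10 symbols were found. They were measured by stranded RNA-seq of polyadenylated RNA from IGROV1, an established human ovarian carcinoma line, in 2 libraries of a cisplatin-resistant line (CR) and 2 libraries of the wild-type parent (WT). The CR line was selected from WT over 6 cycles in 5 months, each cycle a 4-hour exposure to cisplatin, a platinum drug that crosslinks DNA, at rising concentrations, followed by 3 weeks in drug-free medium. Cells of both lines were collected during log growth with no drug present. Each group is a single line, and the labels describe no second selection, so p-values reflect only the spread between samples of the same line. The 10 genes were chosen with the differences between CR and WT already known, so their calls describe these libraries and are no independent test.

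Heparan sulfate is a linear sugar chain carried by proteoglycans of the cell surface and the extracellular matrix. It binds growth factors such as FGFs, chemokines, proteases and their inhibitors, and this binding depends on where along the chain sulfate groups sit. EXT1 and EXT2 form the polymerase that builds the chain. The NDST enzymes then replace acetyl groups on glucosamine with sulfate, an epimerase converts part of the uronic acid, and the HS2ST, HS6ST and HS3ST enzymes add sulfate at the positions in their names. The sulfatases SULF1 and SULF2 act outside the cell and remove part of the glucosamine sulfate placed by the HS6ST enzymes.

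In CR cells, HS6ST2 fell below detection: this sulfotransferase had 0 counts in both CR libraries, against 30.4 and 74.6 CPM (counts scaled per 1e6 of the TMM-adjusted library size) in WT. Its paralog HS6ST1 had 94.5 and 91.5 CPM in CR, against 94.6 and 81.2 CPM in WT. SULF1, a weakly expressed sulfatase, also had 0 counts in CR. Of the other members, EXT1, EXT2, NDST1, HS2ST1, HS6ST1 and HS3ST1 did not pass the test, and NDST2 and HS6ST3 had too few counts to be tested. Beside the members, the 3-O-sulfotransferase HS3ST3B1 rose, and the sulfate donor enzyme PAPSS2 and the chain-cutting enzyme HPSE fell.

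The sequences around the annotated starts of HS6ST2 and HS6ST1 are shown because these paralogs catalyse the same step and HS6ST2 alone of the pair was called. Each window runs from 250 bases before to 50 bases after the RefSeq start (build GRCh38.p14), 5′ to 3′ on the gene's strand, with every CG dinucleotide in capitals. The HS6ST2 window is chrX:132961321-132961620, minus strand, and the HS6ST1 window is chr2:128318819-128319118, minus strand.
HS6ST2: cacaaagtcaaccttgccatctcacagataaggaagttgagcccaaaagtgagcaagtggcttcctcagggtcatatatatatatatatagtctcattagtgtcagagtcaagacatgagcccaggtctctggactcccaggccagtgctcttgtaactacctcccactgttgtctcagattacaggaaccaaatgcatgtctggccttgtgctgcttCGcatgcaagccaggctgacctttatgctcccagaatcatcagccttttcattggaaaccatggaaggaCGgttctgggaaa
HS6ST1: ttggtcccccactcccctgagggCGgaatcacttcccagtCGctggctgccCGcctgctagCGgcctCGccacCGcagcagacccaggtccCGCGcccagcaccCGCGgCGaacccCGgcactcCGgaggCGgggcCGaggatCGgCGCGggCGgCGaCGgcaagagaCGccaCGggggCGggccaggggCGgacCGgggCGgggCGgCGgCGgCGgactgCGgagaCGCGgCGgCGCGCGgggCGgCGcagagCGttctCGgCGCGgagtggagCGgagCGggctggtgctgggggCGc
The HS6ST2 window held 2 CG dinucleotides and 47.3% G or C, and 11% of the 35114 RefSeq windows of this length held fewer CG. The HS6ST1 window held 47 CG dinucleotides and 79.7% G or C, with fewer CG in 97.6% of windows. The motif GGGCGG, searched on both strands, had 0 matches in the HS6ST2 window and 6 in that of HS6ST1, and 45% of all windows held it. TATAAA, searched likewise, had 0 matches in either window and was present in 11.5% of all windows. Windows were matched for 8 of the 10 members. Those of NDST1 (8 CG dinucleotides), HS6ST3 (19), HS3ST1 (30) and HS2ST1 (33) lay between the pair, while NDST2 and EXT2 had several windows. GENCODE 29 places the starts of HS6ST2 transcripts at 4 positions spread over 203 kb. These data do not show which start the cells used, and methylation was not measured.

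The libraries held 24727362 and 24008899 counts in CR and 23886257 and 24264458 counts in WT. Of the 17304 genes that passed the filter on low counts, 13.5% were called (edgeR quasi-likelihood test, two-sided, Benjamini-Hochberg adjusted p at most 0.05), 5.44% higher and 8.10% lower in CR. Among 6 simple epithelial markers, all tested, 2 were higher and 3 lower, and their summed level was 2350 to 2500 CPM in CR and 3320 to 4650 CPM in WT. CDH1 rose, with 257.5 and 229.7 CPM in CR and 51.6 and 107.8 CPM in WT (edgeR adjusted p = 0.0231). EPCAM rose 1.80-fold (edgeR adjusted p = 0.0241), while KRT8 and KRT18 fell 2.58-fold and 1.75-fold (0.00245 and 0.0492), and the calls of EPCAM and KRT18 were lost without either CR library. That of KRT18 was lost also with limma-voom (adjusted p = 0.0522), and with upper quartile factors, library size alone and a stricter filter (edgeR adjusted p = 0.0586 to 0.0727). KRT19 had 634 and 682.4 CPM in CR and 790 and 360.8 CPM in WT (edgeR adjusted p = 0.793). KRT7 had 5.26 and 4.79 CPM in CR and 538.7 and 251.6 CPM in WT (edgeR adjusted p = 0.000309). Of 6 Mullerian and ovarian carcinoma markers 4 were tested, 0 were higher and 2 lower. MUC16 had 7.68 and 3.72 CPM in CR and 22.3 and 49.6 CPM in WT (edgeR adjusted p = 0.014), MSLN had 46.6 and 45.2 CPM in CR and 241.3 and 140.9 CPM in WT (0.00465), and PAX8 had 398.8 and 395.2 CPM in CR and 545.7 and 286.1 CPM in WT (0.926). SOX17 lay the other way, with 57.0 and 65.2 CPM in CR and 47.6 and 40.6 CPM in WT, and did not pass (edgeR adjusted p = 0.23). WT1 and EMX2 had too few counts to be tested. The summed level of 6 fibroblast markers was 2.71 to 2.82 CPM in CR and 34.5 to 59.5 CPM in WT, with COL1A2, DCN and LUM at 0 everywhere. Most of the WT sum was COL1A1, at 57.15 and 31.41 CPM, which was lower in CR (edgeR adjusted p = 0.000575). PDGFRB did not pass (edgeR adjusted p = 0.215). The summed level of 4 endothelial markers was 29.8 to 33.4 CPM in CR and 67 to 85.3 CPM in WT, with KDR at 0 everywhere. That of 5 leukocyte markers was at most 2.66 CPM. Among the endothelial markers PECAM1 rose, with 3.78 and 3.27 CPM in CR and 0.129 and 0.335 CPM in WT (edgeR adjusted p = 0.0045). CDH5 fell, with 0.956 and 1.02 CPM in CR and 41.7 and 46.4 CPM in WT (edgeR adjusted p = 0.000138). VWF had 28.7 and 25.5 CPM in CR and 25.2 and 38.65 CPM in WT and did not pass (edgeR adjusted p = 0.666). The part of these differences in the results was not tested.

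**Figure D1:**
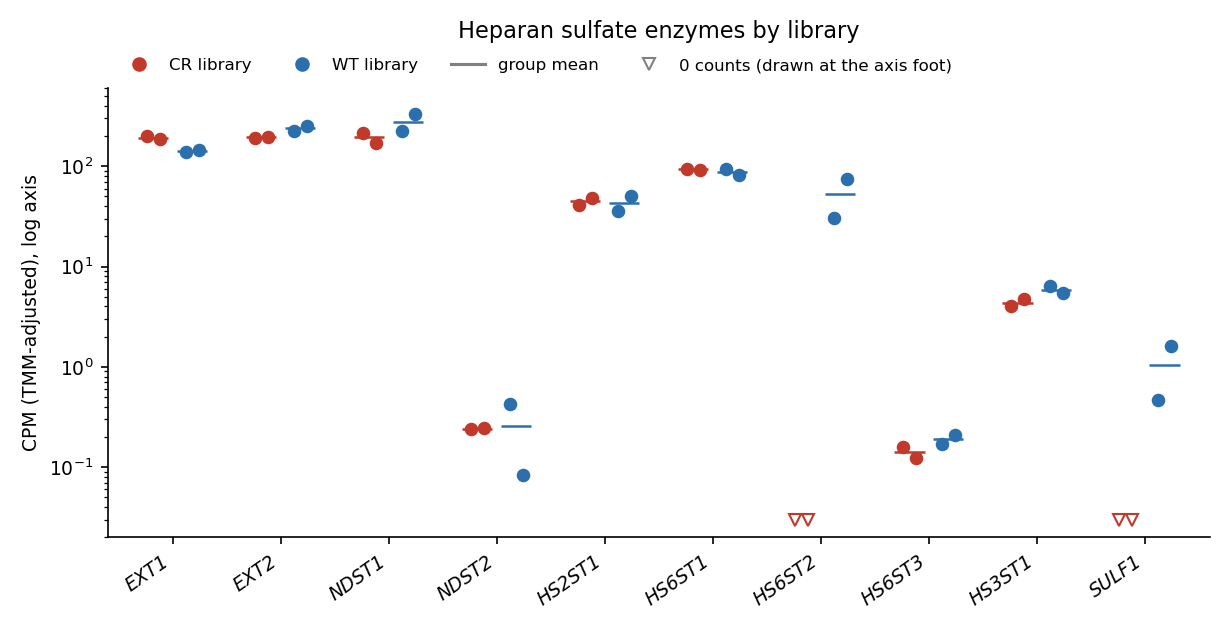
Level of each of the 10 enzymes in each library, in CPM on a log axis, with CR libraries (red) left of WT libraries (blue), short lines at the group means, and open triangles at the axis foot for libraries with 0 counts. HS6ST2 and SULF1 have 0 counts in both CR libraries, while EXT1, EXT2, NDST1, HS2ST1 and HS6ST1 lie above 30 CPM in all 4 libraries.

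The chain polymerase genes were abundant in both lines. EXT1 (chromosome 8, 117794490 to 118111853, GRCh38) had 198.6 and 187.1 CPM in CR and 138.5 and 144.4 CPM in WT. Both CR libraries lay above both WT libraries, with means of 192.8 ± 8.15 and 141.5 ± 4.17 CPM (SD over 2 libraries, as for all means given). The log2 fold change, CR over WT, was 0.45 (SE 0.18) and did not pass (edgeR adjusted p = 0.163). It kept this sign without any of the libraries, and was called with WT replicate 1 left out (0.42, adjusted p = 0.0198) or WT replicate 2 left out (0.48, adjusted p = 0.00548), where the spread comes from the CR pair alone. EXT2 (chromosome 11, 44095549 to 44245429), the partner of EXT1 in the polymerase, had 192.9 and 195.5 CPM in CR and 224 and 254.7 CPM in WT. Its CR libraries lay below its WT libraries, and the difference did not pass (log2 fold change -0.30, SE 0.18; edgeR adjusted p = 0.349). It was called with WT replicate 1 left out (-0.39, edgeR adjusted p = 0.0283) and not with WT replicate 2 left out (-0.21, adjusted p = 0.262). The pair thus had opposite signs, and EXT1 made up 38.7% ± 1.22 of the summed EXT1 and EXT2 level per exon kilobase in CR and 27.3% ± 1.22 in WT. That share rests on 2 values that were themselves not past the threshold, and it was not tested. It also depends on the length used. Per kilobase of coding sequence, EXT1 and EXT2 both stood at 86.2 CPM in CR, and at 63.2 and 106.2 CPM in WT.

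Among the N-deacetylases and N-sulfotransferases, which start the sulfation of the chain, NDST1 carried nearly all counts. NDST1 (chromosome 5, 150485818 to 150558211) had 215.2 and 172.1 CPM in CR and 222.5 and 335.4 CPM in WT. The groups did not overlap, but WT replicate 1 lay much closer to the CR libraries than to WT replicate 2. The log2 fold change was -0.53 (SE 0.25; edgeR adjusted p = 0.239), and it was -0.79 without WT replicate 1 (adjusted p = 1.46e-06) and -0.20 without WT replicate 2 (adjusted p = 0.276). NDST2 (chromosome 10, 73801911 to 73811798), the paralog known from mice for its part in mast cell heparin, had 6 and 6 counts in CR and 10 and 2 counts in WT, too few for the test. In GENCODE 29, 82.9% of the exon bases of NDST2 are also exon bases of AC022400.6 on the same strand, and that gene had 0 counts in all 4 libraries. Reads from the shared exons could belong to either gene, so the deposited counts cannot give the level of NDST2. The NDST1 share of its family, 99.7% ± 0.0455 in CR and 99.8% ± 0.26 in WT per exon kilobase, carries the same limit. NDST3 and NDST4, the other paralogs, had at most 1 count in any library.

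HS2ST1 (chromosome 1, 86914648 to 87109998), the heparan sulfate 2-O-sulfotransferase, which acts on uronic acid, had 40.8 and 48.4 CPM in CR and 36 and 50.8 CPM in WT. The groups overlapped, and the log2 fold change was 0.04 (SE 0.25; edgeR adjusted p = 0.952). Part of its exon bases, 9.69%, is shared on the same strand with AC093155.3.

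The 6-O-sulfotransferases showed the largest difference among the members. HS6ST2 (chromosome X, 132626016 to 132961395) had 0 and 0 counts in CR and 710 and 1782 counts in WT. No CR library held a read, and the WT libraries themselves differed by a log2 ratio of 1.29, a larger difference between WT replicates than in 91.7% of the genes tested. With 3 counts over the CR pair as the floor (0.0605 CPM), HS6ST2 fell at least 872-fold in CR against the mean of both WT libraries (edgeR adjusted p = 0.000859), and at least 502.5-fold with WT replicate 2 left out. This call held in 13 of 13 alternative settings (edgeR, DESeq2 or limma-voom adjusted p at most 0.00963). These settings refit the same libraries, and a pairing of replicates among them was chosen after seeing the data. HS6ST2 was chosen on this contrast, so they are no independent support. The antisense gene of HS6ST2, HS6ST2-AS1, had 0 and 0 counts in CR and 1 and 0 counts in WT. No exon base of HS6ST2 is shared with another gene in the annotation. In bulk RNA, fewer expressing cells and less RNA per cell cannot be told apart.

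HS6ST1 (chromosome 2, 128236716 to 128318577) had 93.0 ± 2.07 CPM in CR and 87.9 ± 9.47 CPM in WT. The groups overlapped (log2 fold change 0.08, SE 0.20; edgeR adjusted p = 0.853), and the pseudogene HS6ST1P1 held at most 5 counts in any library. HS6ST3 (chromosome 13, 96090839 to 96839562) had 4 and 3 counts in CR and 4 and 5 counts in WT and was not tested. Per exon kilobase, HS6ST1 made up 99.9% of the family in each CR library and 76.8% and 53.7% in the WT libraries. HS6ST2 made up the remaining 23.1% and 46.2% in WT, apart from at most 0.0835% for HS6ST3. The summed level of the family was 20.2 and 19.6 CPM per exon kilobase in CR and 26.3 and 32.3 in WT, so both CR libraries lay below both WT libraries. HS6ST1 alone overlapped, at 20.17 and 19.55 in CR and 20.2 and 17.34 in WT. The lower sum thus restates the counts of HS6ST2, which was chosen on this contrast, and is no further result.

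HS3ST1 (chromosome 4, 11393150 to 11429765) adds the 3-O-sulfate known for creating the binding site of antithrombin. It had 4.02 and 4.70 CPM in CR and 6.38 and 5.40 CPM in WT. The groups did not overlap but stood close to each other, and the difference did not pass (log2 fold change -0.43, SE 0.31; edgeR adjusted p = 0.45).

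SULF1 (chromosome 8, 69466624 to 69660915), the sulfatase, had 0 and 0 counts in CR and 11 and 39 counts in WT. Its WT level was 1.05 ± 0.822 CPM, and the WT libraries differed by a log2 ratio of 1.62, more than 95.6% of the genes tested. SULF1 fell at least 17.5-fold in CR against the floor of 3 counts (edgeR adjusted p = 0.0242), and this bound was 7.79-fold with WT replicate 2 left out and 27.0-fold with WT replicate 1 left out. Under a stricter filter, at least 1 CPM in all libraries of a group, it was not tested. SULF2, the paralog with the same activity, was by far the more abundant, with 228.3 and 219.2 CPM in CR and 280.8 and 233.6 CPM in WT. Its CR libraries lay below its WT libraries, and the difference did not pass (log2 fold change -0.20, SE 0.18; edgeR adjusted p = 0.568). SULF2 made up 100% of the summed level of both sulfatases per exon kilobase in CR and 99.7% ± 0.264 in WT, with at most 0.493% for SULF1 in a WT library.

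Counted together, 8 of the 10 members were tested, 0 were higher and 2 lower in CR, and 6 did not pass, against 13.5% of all tested genes called and 8.10% called lower. HS6ST2 and SULF1 passed the filter on low counts through their WT libraries alone, and the members were chosen on this contrast, so nothing is read from that share. In 1 tested member both CR libraries lay above both WT libraries (27.0% of all tested genes), in 5 below (28.2%), and 2 overlapped; over all tested genes 55.3% had groups that did not overlap. The median log2 fold change of the tested members was -0.37, and that of all tested genes -0.01. HS6ST2 and SULF1 are among the 5 below and within this median, so nothing is read from these values either.

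Per exon kilobase, the order of levels differed between the lines below the top place. In CR, EXT2 stood first at 36.7 ± 0.347 CPM per kilobase, followed by EXT1 (23.2 ± 0.979), NDST1 (20.3 ± 3.2) and HS6ST1 (19.9 ± 0.442). Among these 3, the libraries of NDST1 overlapped with those of both neighbours. HS2ST1 followed, with 5.49 and 6.52 in its libraries, and HS3ST1 stood at 0.534 ± 0.0591. In WT, EXT2 (45.3 ± 4.12) was followed by NDST1 (29.3 ± 8.37), HS6ST1 (18.8 ± 2.02) and EXT1 (17.0 ± 0.501), and the last 2 touched. HS6ST2 came next at 10.5 ± 6.25, overlapping HS2ST1 at 5.84 ± 1.41. HS3ST1 stood at 0.722 ± 0.0849 and SULF1 at 0.112 ± 0.0874. Per kilobase of coding sequence instead, EXT1 and EXT2 in CR both stood at 86.2, EXT2 (106.2) and NDST1 (105.4) were close in WT, and HS2ST1 (40.6) stood above HS6ST2 (27.1) in WT. These places therefore depend on the length used.

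**Figure D2:**
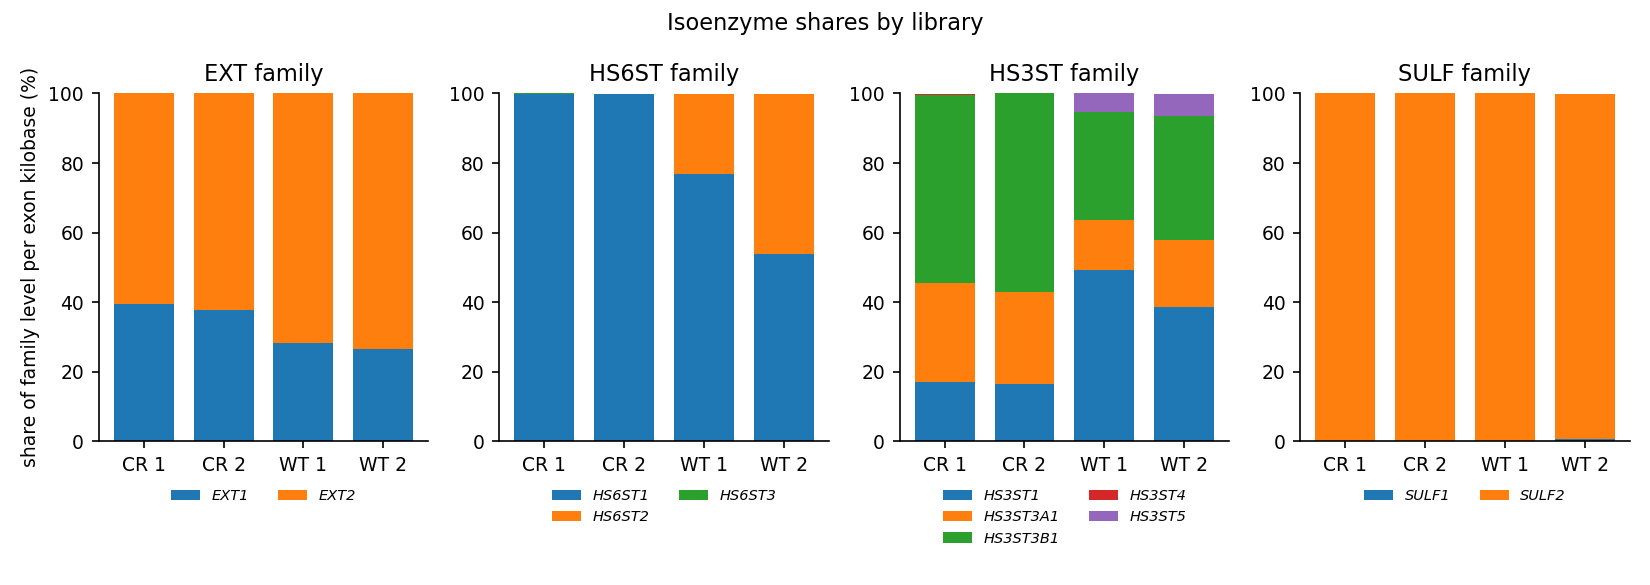
Share of each isoenzyme in the summed level of its family, in percent of CPM per exon kilobase, for each CR and WT library (stacked bars). HS6ST2 takes 23.1% and 46.2% of its family in WT and 0 in CR, while in the HS3ST family the HS3ST3A1 and HS3ST3B1 bands are wider in CR.

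Among the abundant members, the replicates of NDST1, EXT2, HS2ST1 and HS6ST1 lay closer together in CR than in WT, and those of EXT1 lay close in both lines. The log2 ratio between replicates 2 and 1 was -0.32 in CR and 0.59 in WT for NDST1, and -0.09 and 0.06 for EXT1. The median absolute deviation of this ratio over all tested genes was 0.252 in CR and 0.638 in WT, so the WT pair stood further apart over the tested genes as well. HS6ST1 (-0.05 in CR, -0.22 in WT) and EXT2 (0.02 in CR, 0.19 in WT) differed less between replicates than NDST1 in both lines.

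Other genes of the heparan sulfate pathway were taken from lists of its steps, not picked by how they moved. Of 13 further enzymes of chain building, epimerisation and sulfation, 7 were tested, 1 was higher and 0 lower, against 5.44% and 8.10% of all tested genes. Their median log2 fold change was 0.30. The one that rose was HS3ST3B1 (chromosome 17, 14301083 to 14349404), a 3-O-sulfotransferase known for creating the entry receptor site of herpes simplex virus. It had 8.44 and 10.7 CPM in CR and 2.66 and 3.27 CPM in WT, 3.22-fold higher in CR (edgeR log2 fold change 1.69, SE 0.31; adjusted p = 0.0133). The call was lost without CR replicate 2 (edgeR adjusted p = 0.157). HS3ST3A1, a close paralog on the same chromosome and named after its values were seen, had 2.19 and 2.41 CPM in CR and 0.6 and 0.879 CPM in WT. It just missed the threshold (log2 fold change 1.63, SE 0.43; edgeR adjusted p = 0.0521) and was called under either other filter, without scaling factors and under upper quartile scaling (edgeR adjusted p = 0.0248 to 0.0462). The sulfotransferase domains of both are nearly identical, so reads from them could be missing from the counts or assigned to the wrong gene. HS3ST5, also named after its values were seen, had 0 and 0 counts in CR and 8 and 11 counts in WT, at least 6.65-fold lower, and did not pass the filter on low counts.

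Within the HS3ST family the composition per exon kilobase differed between the lines. HS3ST1 made up 16.7% ± 0.271 in CR and 43.9% ± 7.56 in WT. HS3ST3B1 made up 55.6% ± 2.16 in CR and 33.3% ± 3.03 in WT, and HS3ST3A1 27.5% ± 1.6 in CR and 16.9% ± 3.62 in WT. These shares depend on the length used. Per kilobase of coding sequence, HS3ST1 stood at 4.74 CPM in CR and 6.40 CPM in WT, and HS3ST3B1 at 8.17 and 2.53 CPM. The summed family level was 2.91 and 3.48 CPM per exon kilobase in CR and 1.59 and 1.72 in WT, with no overlap. These levels are low beside the 19.6 to 32.3 of the HS6ST family, and the shares were not tested. All of them carry the limit of reads that HS3ST3A1 and HS3ST3B1 could share.

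**Figure D3:**
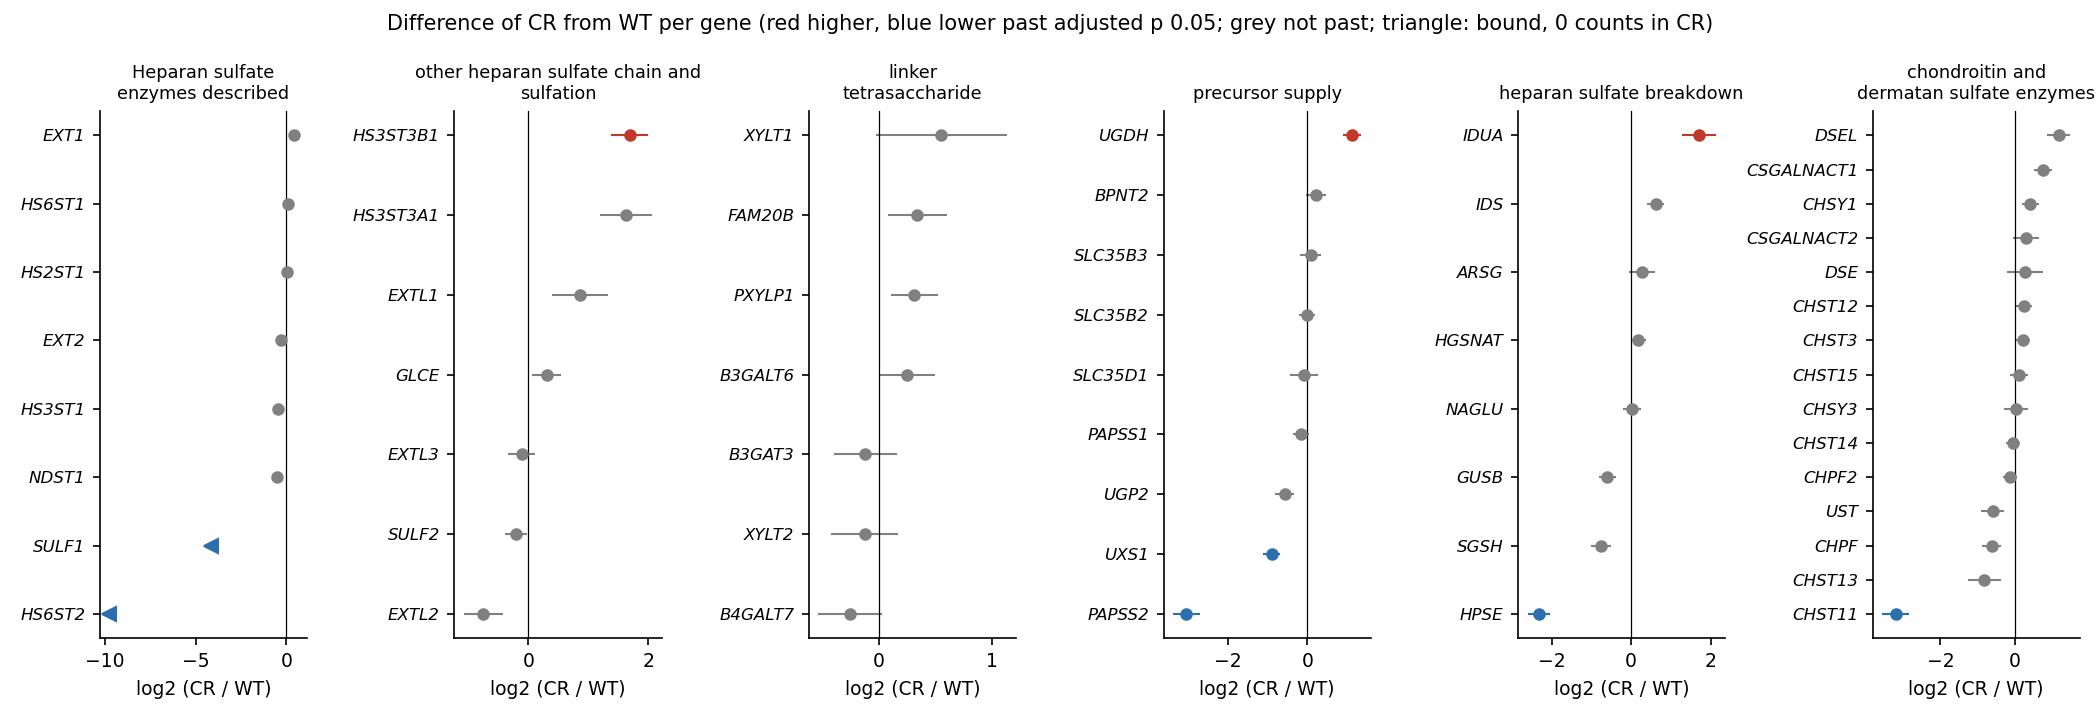
Log2 fold change of CR over WT for every tested gene of the pathway lists, with SE as bars, red and blue for genes past an adjusted p of 0.05, and triangles for the lower bound of genes with 0 counts in CR. HS6ST2 and SULF1 stand apart on the lower side, PAPSS2, HPSE and CHST11 are the lowest of their lists, and no gene of the linker list is past the threshold.

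The linker that joins heparan sulfate and chondroitin sulfate chains to their core proteins is built by a shared set of enzymes. Of 7 such genes 0 were higher and 0 lower by edgeR, against 5.44% and 8.10% of all tested genes. At an unadjusted threshold of 0.05 edgeR gave 0 as well, and DESeq2 and limma-voom also called 0. The median log2 fold change of the 7 genes was 0.25. The most abundant per length was FAM20B, the xylose kinase, with 125.2 and 117.3 CPM in CR and 73.2 and 118.6 CPM in WT.

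Of 9 genes of precursor supply, all tested, 1 was higher and 2 lower, against 5.44% and 8.10% of all tested genes, and their median log2 fold change was -0.08. PAPSS2 (chromosome 10, 87659613 to 87747705), which with PAPSS1 makes the sulfate donor PAPS, had 2.95 and 3.56 CPM in CR and 20.4 and 33.0 CPM in WT. All WT values lay far above the CR values, and PAPSS2 fell 8.23-fold in CR (edgeR log2 fold change -3.03, SE 0.33; adjusted p = 0.00171). PAPSS1 was the more abundant of the pair at 101.1 ± 3.54 CPM in CR and 112.9 ± 9.72 CPM in WT, and it did not pass (edgeR adjusted p = 0.68). UGDH, which makes UDP-glucuronic acid, had 59.5 and 52.1 CPM in CR and 23.1 and 28.1 CPM in WT and rose 2.18-fold (edgeR adjusted p = 0.0193). UXS1, which converts UDP-glucuronic acid to UDP-xylose for the linker, had 83.5 and 83.9 CPM in CR and 133.3 and 178.4 CPM in WT and fell 1.87-fold (edgeR adjusted p = 0.0354). Both calls were lost without CR replicate 1 (edgeR adjusted p = 0.278 for UGDH and 0.318 for UXS1) or CR replicate 2 (0.132 and 0.317). SLC35B2, a PAPS transporter of the Golgi and the most abundant of the list per length, had 86.7 ± 5.02 CPM in CR and 87.1 ± 5.43 CPM in WT.

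Of 9 genes of heparan sulfate breakdown, 8 were tested, 1 was higher and 1 lower, against 5.44% and 8.10% of all tested genes. Their median log2 fold change was 0.10. HPSE (chromosome 4, 83292461 to 83335153), heparanase, the endoglycosidase that cuts the chain, had 12.4 and 11.2 CPM in CR and 46.5 and 71.4 CPM in WT. The groups stood well apart, and HPSE fell in CR (edgeR log2 fold change -2.32, SE 0.28; adjusted p = 0.00269). HPSE2, its relative without that activity, had 0 counts everywhere. IDUA, a lysosomal iduronidase, rose 3.26-fold at a low level, with 2.28 ± 0.0991 CPM in CR and 0.7 ± 0.161 CPM in WT (edgeR adjusted p = 0.0436). That call was lost with DESeq2 (adjusted p = 0.0563), without CR replicate 1 (edgeR adjusted p = 0.281) and without CR replicate 2 (0.241), and 13.3% of the exon bases of IDUA overlap SLC26A1 on the opposite strand. GUSB, the lysosomal beta-glucuronidase, had 87.6 and 94.3 CPM in CR and 157.8 and 117.1 CPM in WT. Its CR libraries lay below its WT libraries, and the difference did not pass (log2 fold change -0.60, SE 0.22; edgeR adjusted p = 0.136), though it was called without WT replicate 1 (adjusted p = 0.0356) or WT replicate 2 (2.57e-07).

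Chondroitin and dermatan sulfate grow on the same linker and were read for comparison. Of 16 enzymes of their synthesis 15 were tested, 0 were higher and 1 lower, against 5.44% and 8.10% of all tested genes. The median log2 fold change of these enzymes was 0.11. CHST11, a chondroitin 4-O-sulfotransferase, had 0.717 and 0.736 CPM in CR and 6.08 and 7.37 CPM in WT, and fell 9.27-fold in CR (edgeR log2 fold change -3.20, SE 0.37; adjusted p = 0.00194). CHST3, the most abundant of the list per length over both lines, had 234.8 ± 23.6 CPM in CR and 200 ± 29.7 CPM in WT. In WT alone, CHPF (30.9 CPM per exon kilobase) and CHPF2 (30.0) stood above CHST3 (28.7).

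HS6ST2 lies on the long arm of the X chromosome, with the glypican genes GPC4 and GPC3 on its upstream side and MBNL3 on its downstream side, and its neighbours were read to see whether they shared its 0 counts. Within 1.5 Mb of the gene there were 13 other protein-coding genes, of which 9 were tested. Of these, 4 were lower, 1 higher and 4 not past the threshold in CR, against 8.10% of all tested genes lower and 5.44% higher. MBNL3, IGSF1 and CCDC160, all called lower, passed the filter on low counts through their WT libraries alone, so nothing is read from that share. The nearest upstream genes, USP26 and TFDP3, and the more distant OR13H1 had 0 counts in all 4 libraries and give no comparison. The nearest tested gene upstream, GPC4, had 1395 and 1416 counts in CR and 1409 and 1732 in WT (edgeR adjusted p = 0.575, and 0.0409 without WT replicate 1). The nearest tested gene downstream, MBNL3, had 5 and 3 counts in CR and 52 and 129 counts in WT, 23.8-fold lower in CR (edgeR adjusted p = 0.00587) and 13.8-fold lower without WT replicate 2. Beyond them, RAP2C had 21.2 ± 2.09 CPM in CR and 20.6 ± 6.08 CPM in WT, and GPC3 rose 3.77-fold (edgeR adjusted p = 0.0127). IGSF1 and CCDC160 had 0 counts in CR and were at least 17.5-fold and 18.9-fold lower, with WT levels of 1.06 ± 0.462 and 1.15 ± 0.438 CPM, and HPRT1 fell 3.26-fold. STK26, with 1223 and 1130 counts in CR and 462 and 1151 in WT, and PHF6 did not pass (edgeR adjusted p = 0.529 and 0.915). Between HS6ST2 and CCDC160 lay GPC4 and GPC3 beside USP26 and TFDP3, and between HS6ST2 and IGSF1 lay MBNL3, RAP2C, FRMD7 and STK26. Apart from USP26 and TFDP3, these had counts in every CR library. MBNL3 had only 5 and 3 and was itself called lower, and FRMD7 had only 1 and 5 and was not tested. The cause of the 0 counts was not tested. DNA copy number was not measured.

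**Figure D4:**
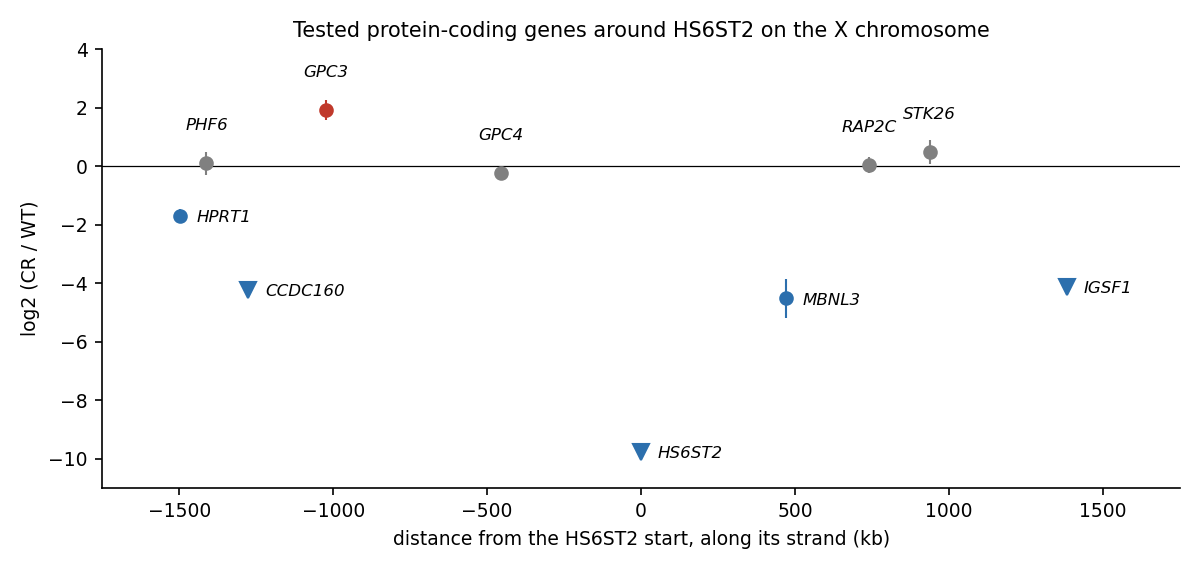
Log2 fold change of CR over WT for tested protein-coding genes within 1.5 Mb of HS6ST2, against the distance of their starts from the HS6ST2 start along its strand in kb, with SE as bars and triangles for the lower bound of genes with 0 counts in CR (red higher, blue lower, grey not past an adjusted p of 0.05). GPC4 and RAP2C lie near 0 on either side, while MBNL3, IGSF1 and CCDC160 lie below -4.

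The tested genes whose profile over the 4 libraries was most like that of HS6ST2, by Euclidean distance between centred log2 CPM values, were CCL2 (distance 0.633), TUB (0.703), DMD (0.765), LTBP1 (0.866) and ICAM1 (0.951). CCL2 is a chemokine gene, DMD encodes dystrophin, LTBP1 a binding protein of latent TGF-beta and ICAM1 an adhesion molecule. TUB had 0 counts in CR and 63.1 ± 14.1 CPM in WT, and DMD had 0 and 1 counts in CR and 547 and 1423 counts in WT. Like HS6ST2, these 5 genes had 0 to 5 counts in each CR library and more in WT replicate 2 than in WT replicate 1. That likeness is the rule by which they were chosen, so it is no further result. The distances rest on 4 libraries and carry no test.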

How the data were processed

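RNA-seq of polyadenylated RNA was available for 4 libraries, 2 of CR and 2 of WT IGROV1 cells, grouped by their titles. The deposited values used were whole-number counts per Ensembl gene, not normalized; a second deposited table of the same counts after normalization was not used. The submitters' processing notes name the tools STAR 2.5.1a, HTSeq and DESeq and the build GRCh38.p7. How the counting treated strand and shared exons, and with which annotation, is not given in the sources used here. Overlapping and antisense genes may not have been told apart, and reads shared by several genes may be missing.

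Counts were tested in R 4.3.3 with edgeR 4.0.16 (TMM factors, robust quasi-likelihood fit and test, group as the only term, all 4 libraries) after filterByExpr with a minimum count of 10. Benjamini-Hochberg adjustment covered all 17304 genes tested, with a threshold of 0.05. An exact permutation test of these groups cannot go below 0.333 and was not used. SE was back-calculated from the fold change and the F statistic. A floor of 3 counts over a group gave bounds for genes with 0 counts; floors cover counting error only. Exon lengths, coordinates and overlaps came from GENCODE 29, promoter windows from RefSeq. Log2 ratios between replicates and distances between profiles used a prior count of 2. The code was tested on simulated data. Alternatives were DESeq2 1.42.0, limma-voom (limma 3.58.1), other scaling factors, other filters, each library left out and the replicate number as a block.

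All 91 symbols of the lists were found. The members and lists were chosen with earlier results of these data known. Named were all members, every called gene of each other enzyme list (up to 8) and its most abundant gene per length over both lines. The 5 genes most like HS6ST2 were named as well. PAPSS1, HPSE2, NDST3, NDST4, CHPF, CHPF2, markers, GENCODE neighbours and the genes marked so in the text were named after their values were seen. A gene that meets these rules is not reported here.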

Additional observations from a re-analysis of the deposited data

How the results depend on the processing

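HS6ST2 and SULF1 were called lower in every setting in which they were tested, 13 and 12 settings, with edgeR, DESeq2 or limma-voom adjusted p at most 0.00963 and 0.026. The 2 lower calls among the members became 1 under the stricter filter, which left SULF1 untested, and the members called numbered 0 to 1 higher and 2 to 4 lower when each library was left out in turn. Leaving out a WT library takes the spread from the tighter CR pair: over all genes the calls ranged from 565 to 3882 higher and from 865 to 4004 lower. The log2 fold changes of HS2ST1 (-0.19 to 0.31), HS6ST1 (-0.024 to 0.20) and SLC35B2 (-0.066 to 0.06) changed sign over these fits, so their direction is not settled. RAP2C (-0.23 to 0.38) and PAX8 (-0.46 to 0.48) did so too, PAX8 being called higher without WT replicate 1 and lower without WT replicate 2 (edgeR adjusted p = 0.0104 and 0.00834). PAX8 changed sign also with limma-voom (0.008), the replicate block (0.007) and the crossed pairing (0.006). SLC35B2 also changed sign with upper quartile factors (0.041), library size alone (0.046) and the stricter filter (0.01).

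Counts of the other lists over the left-out libraries ranged from 0 to 3 higher and 0 to 1 lower for the further chain and sulfation enzymes and from 0 to 3 and 0 to 3 for the linker. They ranged from 0 to 3 and 1 to 4 for precursor supply, from 0 to 2 and 1 to 3 for breakdown, and from 0 to 7 and 1 to 3 for chondroitin and dermatan sulfate enzymes. The further chain and sulfation enzymes had 2 higher with upper quartile factors, library size alone, the stricter filter and no low-count filter, the last also with 1 lower (HS3ST5). Chondroitin and dermatan sulfate enzymes had 1 higher (DSEL, named after its values were seen) with DESeq2, limma-voom, upper quartile factors, library size alone, no low-count filter and the replicate block. Breakdown had 0 higher with DESeq2 and 2 lower with no low-count filter, where 1454 genes were higher in all.

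With the replicate number as a block, 1258 genes were higher and 1517 lower, and 0 and 2 members. The numbers are not known to pair the samples: deviations of same-numbered libraries correlated at -0.173 across genes. A crossed pairing, chosen after seeing the data, called 1671 genes higher and 1803 lower, with 2 higher among the further chain and sulfation enzymes and 1 among chondroitin and dermatan sulfate enzymes. At this depth HS6ST3 and HS3ST5 had too few counts to be tested, and the count of NDST2 carries the limit of its shared exons. Where no cause is given, it was not tested.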
